A study of Mus musculus with 9 samples.

Results

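Chemokine receptors are membrane receptors, most of them coupled to inhibitory G proteins, through which leukocytes sense secreted chemokines, leave or stay in the marrow, and enter tissues. In the marrow, Cxcl12 made by stromal cells holds cells back through Cxcr4, while ligands of Cxcr2 draw neutrophils out, and Ccr2 is needed for monocytes to leave. The 9 receptors described here (Cxcr2, Ccr1, Ccr2, Cx3cr1, Cxcr4, Ccr3, Ccr9, Cxcr5 and Ccrl2) were taken by symbol from the array's probe annotation, as receptors known from neutrophils, monocytes, eosinophils, B cells, dendritic cells and progenitors. They are 9 of the 19938 genes that could be named, and each is read by 1 probe set. They were chosen with earlier results of these data known. Their counts beside those of all genes therefore describe these 9 and do not test chemokine receptors as a class.

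The arrays measured RNA of femoral bone marrow of C57BL6 mice in 3 groups of 3 arrays. Whole marrow came from 3 wild type mice, 1 on each array. Lineage-negative marrow, from which mature blood cells had been removed with a depletion kit, came from 9 other wild type mice, and each array holds a pool of 3 of them. ERG leukemia was the marrow of 3 ERG transgenic mice, killed once signs of leukemia showed, and carrying a myeloid leukemia. ERG is an ETS family transcription factor. Neither the promoter and species of origin of the transgene nor the ages of the mice and the purity of the leukemias are stated in the labels. No wild type littermate or non-leukemic transgenic group was analysed here.

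Values are intensities after RMA, given below as log2 with the mean and SD over the 3 arrays of a group. The number of arrays limits the precision. The 9 arrays had median intensities of 32.3 to 34.4, and arrays of 1 group correlated at 0.971 to 0.995 over all genes. The median over all probe sets, 33.4 or 5.06 on the log2 scale, is used as the mark below which a receptor is treated as dim, and a fold against a dim group is given as a lower bound set by that mark. The probe set for mouse Erg read 6.19 to 6.60 in the leukemias and 7.01 to 7.60 in whole marrow, and it does not check the transgene. Whole marrow array 2 had Xist at 4.32 and the Y-linked Eif2s3y at 8.53, whereas the other 2 whole marrow arrays and the leukemias showed the opposite, and the lineage-negative pools showed both. The sexes are therefore not balanced over the groups. The comparisons of the 9 receptors, but not those of the other genes and markers, were also computed without whole marrow array 2. That removes the imbalance only for leukemia against whole marrow. Both comparisons with the lineage-negative pools stay unbalanced without that array.

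Against whole marrow, the leukemias carried less Cxcr2, Ccr1, Ccr9, Cxcr4 and Ccr3 RNA, and no receptor passed the test as higher. These 5 of 9 receptors passed at a limma adjusted p under 0.05, where 9.93% of all 19938 genes passed as lower and 14.6% as higher. Against lineage-negative marrow the direction turned. Cxcr2, Ccr1 and Ccr3 were higher in the leukemias, none was lower, and 2.95% of all genes passed as higher and 5.74% as lower. Lineage-negative marrow itself had 6 of the 9 below whole marrow (Cxcr2, Ccr1, Ccr2, Cxcr5, Ccr3 and Cxcr4) and none above, against 13% of all genes lower and 21.7% higher. Cxcr2, Ccr1 and Ccr3 thus had their mean in the leukemias between those of the wild type fractions, with each of the 3 differences past the threshold. At an unadjusted limma p under 0.05 the counts in the direction without calls stayed at 0 in all 3 comparisons, and those in the other direction were 6, 4 and 7. Of all 19938 genes, 3107 were lower and 3847 higher at that unadjusted p for leukemia against whole marrow. The lower and higher counts were 2851 and 1661 against lineage-negative marrow, and 3575 and 4976 for lineage-negative against whole marrow.

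The median difference over the 9 receptors was -0.64 on the log2 scale for leukemia against whole marrow, where the median of all genes was -0.02. It was 0.49 for leukemia against lineage-negative marrow (all genes 0.01) and -1.25 for lineage-negative against whole marrow (all genes -0.03). The arrays of the 2 groups did not overlap for 5 receptors that were lower in leukemia than in whole marrow (17.7% of all genes), for 6 that were higher in leukemia than in lineage-negative marrow (11.6%), and for 7 that were lower in lineage-negative than in whole marrow (23.4%). None stood apart in the opposite direction, as 19.4%, 16.3% and 26.6% of all genes did in these comparisons. Each pair of these comparisons shares 3 arrays, so their results are not independent of each other. Centring each array on its 75th percentile turned the balance of all calls for leukemia against whole marrow from 2901 higher and 1980 lower to 2078 and 2575. The same centring gave 743 and 845 in place of 589 and 1144 against lineage-negative marrow, and 3143 and 3887 in place of 4328 and 2587 for the wild type fractions. Among the receptors it changed 1 direction, that of Cx3cr1 in leukemia against whole marrow.

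**Figure D1:**
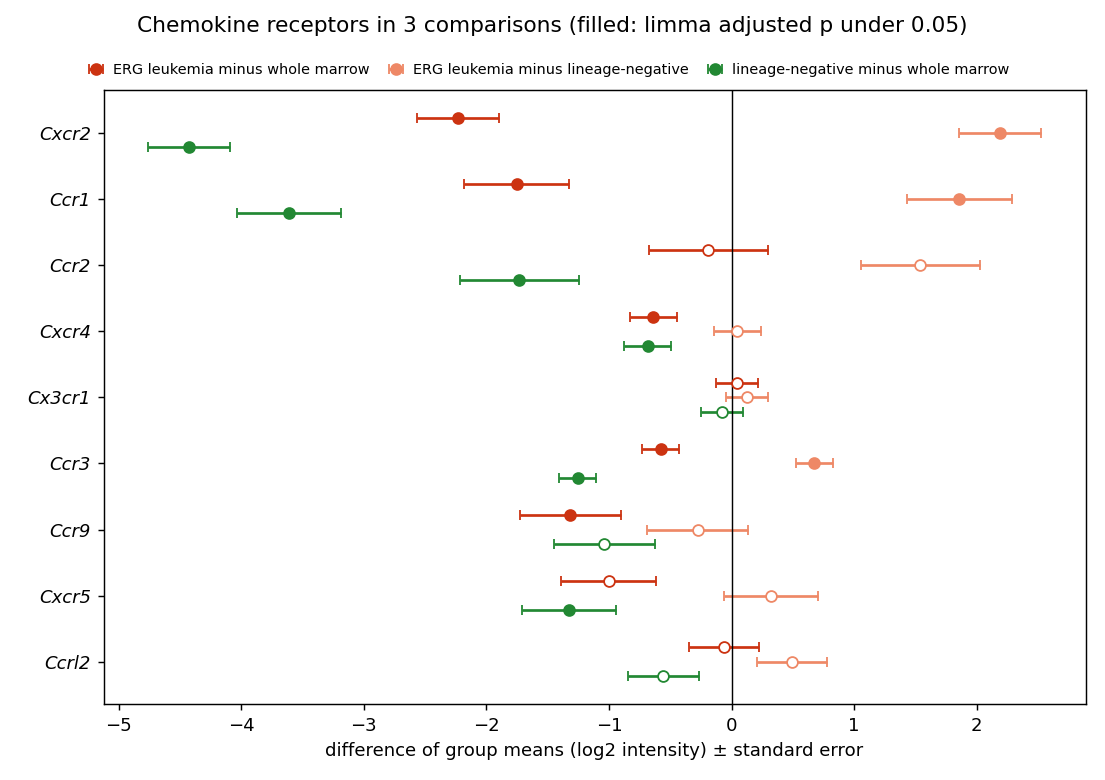
Difference of group means for each receptor on the log2 intensity scale (x axis) with its standard error from the limma fit, in 3 comparisons of 3 arrays each. Filled points passed at an adjusted p under 0.05; Cxcr2 and Ccr1 lie farthest from 0 in every comparison, and Cx3cr1 lies close to 0 in all 3 (after cyclic loess its differences were -0.14, 0.28 and -0.41).

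The count of 5 lower receptors in leukemia rests on few arrays. It was 1 (Cxcr2) without whole marrow array 1, and 2 (Cxcr2 and Ccr1) without whole marrow array 3 or leukemia array 3. It was 3 without lineage-negative array 3, leukemia array 1 or leukemia array 2, and 3 when only the 2 groups compared were fitted. The count of 3 receptors higher than in lineage-negative marrow was 1 (Cxcr2) without any 1 of the lineage-negative arrays or without leukemia array 1. The count of 6 for lineage-negative against whole marrow was 3 (Cxcr2, Ccr1 and Ccr3) without lineage-negative array 2 or 3. Calls over all genes fell in these fits too, though by differing amounts. Lower calls in leukemia against whole marrow went from 1980 to 1248 without whole marrow array 1, and to 1755 without leukemia array 1. Higher calls against lineage-negative marrow went from 589 to 314, 334 and 268 without lineage-negative arrays 1, 2 and 3. Without leukemia array 1 they went only to 532. Lower calls between the wild type fractions went from 2587 to 1863 and 1947 without lineage-negative arrays 2 and 3.

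Cxcr2 (probe set 10347291) is the receptor through which neutrophils respond to Cxcl1, Cxcl2 and related chemokines. Its log2 intensity was 11.17, 10.81 and 10.57 in whole marrow, 7.03, 5.69 and 6.57 in lineage-negative marrow, and 8.94, 8.19 and 8.72 in the leukemias. The 3 groups did not overlap, and the leukemias stood between the wild type fractions. The means were 10.85 ± 0.30, 6.43 ± 0.68 and 8.62 ± 0.39 (SD, n = 3 each), in the same order. Cxcr2 was 4.70-fold lower in leukemia than in whole marrow (log2 difference -2.23 ± 0.34 SE, limma adjusted p = 0.00239). It was 4.56-fold higher than in lineage-negative marrow (2.19 ± 0.34, limma adjusted p = 0.00701). Lineage-negative marrow lay 21.5-fold below whole marrow (-4.42 ± 0.34, limma adjusted p = 6.85e-05). These 3 calls stood under every alternative run, each left-out array included. In bulk RNA such as this, fewer cells that carry a receptor and less of its RNA in each cell cannot be told apart.

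Ccr1 (probe set 10598004), a receptor of neutrophils and monocytes for Ccl3, Ccl6, Ccl9 and other CC chemokines, had the same order of groups. It read 9.33, 9.32 and 8.71 in whole marrow, 5.83, 5.09 and 5.60 in lineage-negative marrow, and 7.56, 6.34 and 8.20 in the leukemias. No group overlapped another, although the leukemias were spread widely (mean 7.37 ± 0.95 SD, against 9.12 ± 0.36 and 5.51 ± 0.38) and leukemia array 2 was the lowest. Ccr1 was 3.37-fold lower in leukemia than in whole marrow (-1.75 ± 0.43 SE, limma adjusted p = 0.0181). It was 3.63-fold higher than in lineage-negative marrow (1.86 ± 0.43, limma adjusted p = 0.0328), and 12.2-fold lower in lineage-negative than in whole marrow (-3.61 ± 0.43, limma adjusted p = 0.000343). The first call was lost without whole marrow array 1 (adjusted p = 0.0637) or 2 (adjusted p = 0.0586). The second was lost without whole marrow array 1, any 1 of the lineage-negative arrays, leukemia array 1 or 3, or when only the 2 groups were fitted (adjusted p = 0.0715).

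Neutrophil markers moved in the same order as these receptors. The summed intensity of 10 neutrophil markers was 36539 to 42126 in whole marrow, 576 to 1882 in lineage-negative marrow and 13560 to 21865 in the leukemias. In leukemia 6 of the 10 were below whole marrow (median -1.36) and 9 of the 10 above lineage-negative marrow (median 4.09), and in lineage-negative marrow 10 of 10 were below whole marrow (median -5.70). Among them Csf3r, the G-CSF receptor, was 2.55 lower on the log2 scale in leukemia than in whole marrow (-2.55 ± 0.37 SE, limma adjusted p = 0.00217), and Ltf, which encodes the granule protein lactoferrin, was 1.30 lower (-1.30 ± 0.39, limma adjusted p = 0.0413). Against lineage-negative marrow Ltf was higher in leukemia by 4.99 ± 0.39 and Csf3r by 1.01 ± 0.37, the latter not past the threshold (limma adjusted p = 0.145). Csf3r and Ltf were chosen for mention after their values were seen. The part of neutrophil content in the differences of Cxcr2 and Ccr1 was not tested.

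**Figure D2:**
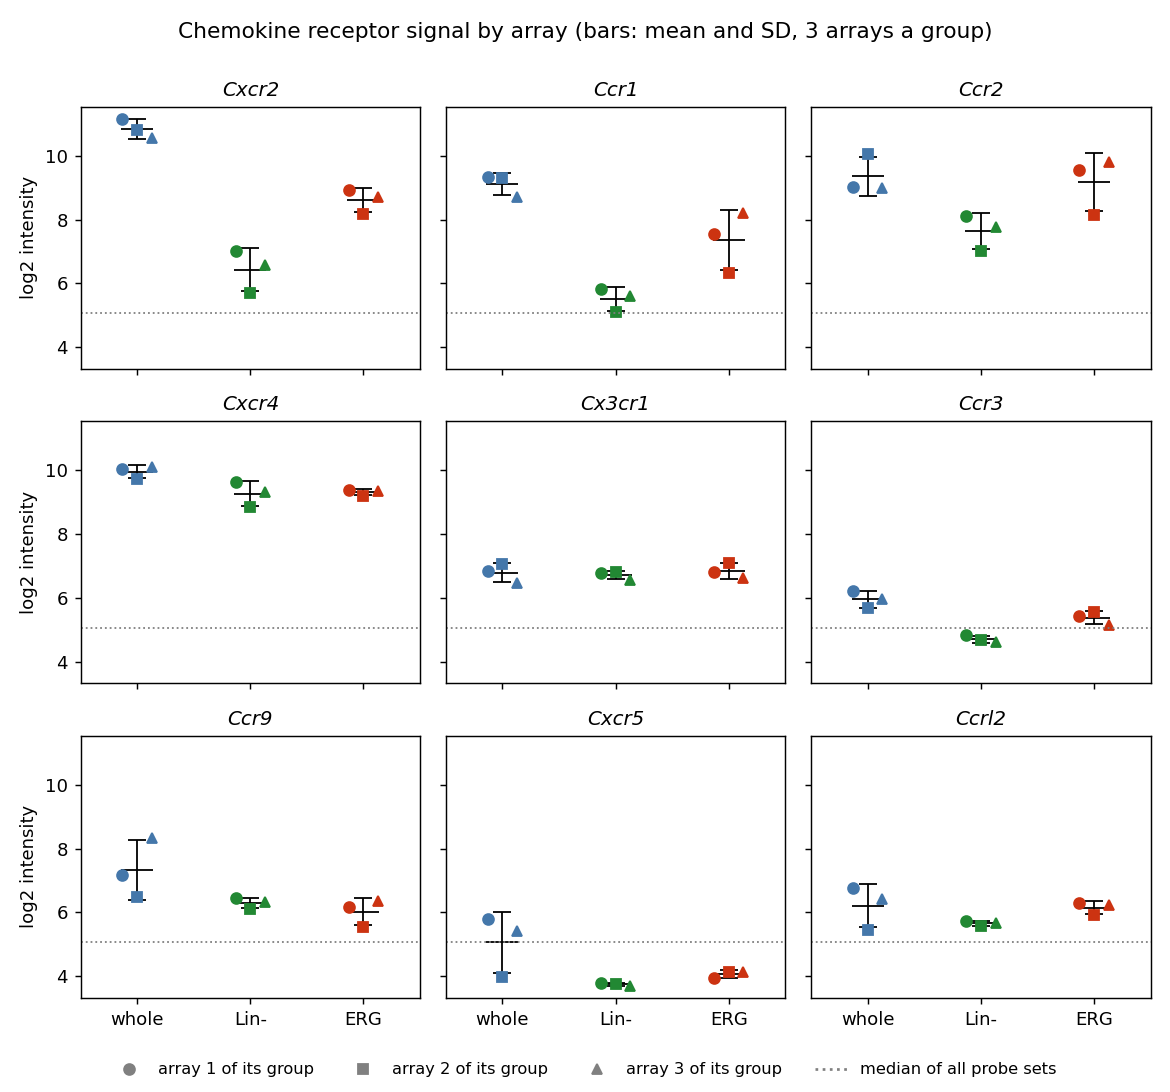
Log2 intensity of each of the 9 receptors on each array (points), with the group mean and SD (bars), in whole marrow, lineage-negative marrow and ERG leukemia; the dotted line is the median of all probe sets, 5.06. Cxcr2 and Ccr1 separate the 3 groups without overlap, Cx3cr1 overlaps in all 3, and Cxcr5 exceeds the line on 2 whole marrow arrays.

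Ccr2 (probe set 10590631), the receptor for Ccl2 and other monocyte chemoattractants, did not pass between leukemia and whole marrow. It read 9.02, 10.07 and 9.00 in whole marrow, 8.13, 7.02 and 7.76 in lineage-negative marrow, and 9.57, 8.15 and 9.82 in the leukemias. The leukemias overlapped whole marrow and exceeded every lineage-negative pool, leukemia array 2 by only 0.02 over the highest. The means were 9.37 ± 0.61, 7.64 ± 0.56 and 9.18 ± 0.90 (SD, n = 3). The difference from whole marrow was -0.19 ± 0.49 SE (95% interval -1.29 to 0.92, limma adjusted p = 0.839). Against lineage-negative marrow it was 1.54 ± 0.49 (95% interval 0.44 to 2.65) and did not pass over all genes (limma adjusted p = 0.0923). With array weights it was 1.79 (adjusted p = 0.00926), and without leukemia array 2 it was 2.06 (adjusted p = 0.0183). Ccr2 was 3.32-fold lower in lineage-negative than in whole marrow (-1.73 ± 0.49, limma adjusted p = 0.0228), a call lost without whole marrow array 2 or lineage-negative array 2 or 3 (adjusted p = 0.0802, 0.085 and 0.0533).

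The monocyte markers varied between the leukemias in the same way as Ccr2. Their sum over 9 genes was 6155, 2731 and 7108 in the leukemias, 4699 to 6003 in whole marrow and 1679 to 3501 in the lineage-negative pools. None of the 9 passed between leukemia and whole marrow in the limma fit (median -0.02, 0 also at an unadjusted p under 0.05). In leukemia Treml4 and Cd68 were higher than in lineage-negative marrow (2 of 9, median 1.13), and Treml4, Cd68, Fcgr1 and Csf1r were lower in lineage-negative than in whole marrow (4 of 9, median -1.19). The part of monocyte content in the values of Ccr2 was not tested.

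Cx3cr1 (probe set 10597743), the fractalkine receptor of non-classical monocytes and tissue macrophages, differed least between the groups. It read 6.83, 7.08 and 6.47 in whole marrow, 6.77, 6.80 and 6.57 in lineage-negative marrow, and 6.81, 7.11 and 6.61 in the leukemias. Every pair of groups overlapped. The differences were 0.05 ± 0.17 SE for leukemia against whole marrow (95% interval -0.35 to 0.44, limma adjusted p = 0.894), 0.12 ± 0.17 against lineage-negative marrow (-0.27 to 0.52, limma adjusted p = 0.773) and -0.08 ± 0.17 between the wild type fractions (-0.47 to 0.32, limma adjusted p = 0.768). The first of these turned to -0.06 after centring on the 75th percentile and to -0.14 after cyclic loess. Cyclic loess also moved the others to 0.28 (adjusted p = 0.458) and -0.41 (adjusted p = 0.134).

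Cxcr4 (probe set 10357472) binds Cxcl12 and retains neutrophils, B cell precursors and stem cells in the marrow. It read 10.04, 9.72 and 10.12 in whole marrow, 9.65, 8.85 and 9.32 in lineage-negative marrow, and 9.39, 9.21 and 9.36 in the leukemias. The leukemias were tightly grouped (mean 9.32 ± 0.09 SD) within the range of the lineage-negative pools (9.28 ± 0.40), and both lay below all whole marrow arrays (9.96 ± 0.21). Cxcr4 was 1.56-fold lower in leukemia than in whole marrow (-0.64 ± 0.19 SE, limma adjusted p = 0.0401) and 1.61-fold lower in lineage-negative marrow (-0.69 ± 0.19, limma adjusted p = 0.0222). Between leukemia and lineage-negative marrow the difference was 0.05 ± 0.19 (95% interval -0.39 to 0.48, limma adjusted p = 0.936). The call against whole marrow was lost without whole marrow array 1 or 3, lineage-negative array 3, or any 1 of the leukemia arrays, with differences of -0.76 to -0.56 over all 9 left-out arrays. The call between the wild type fractions was lost without whole marrow array 1 or 3 or lineage-negative array 2 or 3. Stem and progenitor cells carry Cxcr4 too, and the sum of 9 of their markers was 1496 to 1671 in whole marrow, 3527 to 4909 in the lineage-negative pools and 2318 to 3741 in the leukemias. Of these 9, 7 were higher in lineage-negative than in whole marrow, whereas Cxcr4 was lower in lineage-negative marrow. In leukemia Slamf1, Gata2 and Cdk6 were above and Cd34 and Procr below whole marrow, and Meis1, Cd34, Kit and Hlf were below lineage-negative marrow. The part of stem and progenitor cell content in the values of Cxcr4 was not tested.

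The ligand of Cxcr4, Cxcl12, was measured in the same RNA. It read 6.18, 5.97 and 5.78 in whole marrow, 4.84 to 5.05 in lineage-negative marrow, and 5.33, 4.89 and 5.60 in the leukemias. Cxcl12 was lower in leukemia than in whole marrow (-0.70 ± 0.18 SE, limma adjusted p = 0.0203) and lower in lineage-negative than in whole marrow (-1.01 ± 0.18, limma adjusted p = 0.00227). Its mean in lineage-negative marrow was under the mark. The leukemias and the lineage-negative pools overlapped (0.31 ± 0.18, limma adjusted p = 0.367). Ackr3, the other receptor for Cxcl12, was dim in every group, with means of 4.15, 4.03 and 4.10 in whole marrow, lineage-negative marrow and leukemia, so no fold is given.

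Ccr3 (probe set 10590628), the eotaxin receptor of eosinophils, was low throughout. It read 6.22, 5.68 and 5.98 in whole marrow, 4.83, 4.67 and 4.62 in lineage-negative marrow, where it was dim, and 5.42, 5.57 and 5.15 in the leukemias. The groups did not overlap. Ccr3 was 1.49-fold lower in leukemia than in whole marrow (-0.58 ± 0.15 SE, limma adjusted p = 0.0245) and at least 1.25-fold higher than in lineage-negative marrow (0.68 ± 0.15, limma adjusted p = 0.0304). Lineage-negative marrow was at least 1.87-fold below whole marrow (-1.25 ± 0.15, limma adjusted p = 0.000379), a call kept under every alternative run. The call against whole marrow was lost when only the 2 groups were fitted (adjusted p = 0.0586) and without whole marrow array 1 or 3 or leukemia array 3, and that against lineage-negative marrow without any 1 of the lineage-negative arrays or leukemia array 1 or 2.

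The eosinophil markers were ordered differently from Ccr3. Their sum over 6 genes was 1038 to 2043 in the lineage-negative pools, 707 to 1149 in whole marrow and 229 to 312 in the leukemias. In leukemia Epx, Prg2, Prg3, Alox15 and Il5ra were below whole marrow (5 of 6, median -1.33), the first 4 of them also below lineage-negative marrow (median -1.97), and 4 of the 6 had a mean below the median of all probe sets. Between the wild type fractions 1 of the 6 passed, Epx, the eosinophil peroxidase. It was higher in lineage-negative marrow by 1.60 ± 0.35 SE (limma adjusted p = 0.00756) while Ccr3 was lower there. Without passing, Prg2, Alox15 and Prg3 were higher there (0.73, 0.66 and 0.62), and Il5ra and Siglecf were lower (-0.31 and -0.05). The part of eosinophil content in the values of Ccr3 was not tested.

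Ccr9 (probe set 10590620) responds to Ccl25 and is carried by T cell progenitors, plasmacytoid dendritic cells and gut-homing lymphocytes. It read 7.17, 6.49 and 8.35 in whole marrow, 6.44, 6.12 and 6.34 in lineage-negative marrow, and 6.17, 5.54 and 6.36 in the leukemias. All leukemias lay below all whole marrow arrays, and they overlapped the lineage-negative pools. Ccr9 was 2.49-fold lower in leukemia than in whole marrow (-1.31 ± 0.41 SE, limma adjusted p = 0.0494). That call stood only narrowly. It was lost when only the 2 groups were fitted (adjusted p = 0.106) and without any 1 array except whole marrow array 2, and without whole marrow array 3, which had the highest value, the difference was -0.81. The differences were -0.28 ± 0.41 from lineage-negative marrow (95% interval -1.22 to 0.67, limma adjusted p = 0.794) and -1.04 ± 0.41 between the wild type fractions (limma adjusted p = 0.0876). The latter passed after centring on the 75th percentile (-1.20, adjusted p = 0.0267), after cyclic loess (-1.36, adjusted p = 0.0355), with array weights (-1.24, adjusted p = 0.0169) and without whole marrow array 2 (-1.46, adjusted p = 0.0181).

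Cxcr5 (probe set 10592888) guides mature B cells into follicles along Cxcl13. It read 5.79, 3.98 and 5.43 in whole marrow, 3.80, 3.74 and 3.69 in lineage-negative marrow, and 3.93, 4.14 and 4.12 in the leukemias. Whole marrow arrays 1 and 3 stood above the median of all probe sets, whereas whole marrow array 2 was as low as the leukemias, and the other groups were dim on all arrays. Cxcr5 was lower in lineage-negative than in whole marrow (-1.33 ± 0.39 SE, limma adjusted p = 0.0263), a fold of at least 1.01 with the dim group set at the mark. That call was lost after cyclic loess (-1.25, adjusted p = 0.0519) and without whole marrow array 1 or 3 or any 1 of the lineage-negative arrays. The difference between leukemia and whole marrow was -1.003 ± 0.385 (limma adjusted p = 0.0972). It passed after centring on the 75th percentile (-1.11, adjusted p = 0.0351), with array weights (-1.26, adjusted p = 0.0142) and without whole marrow array 2 (-1.55, adjusted p = 0.00119).

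The markers of the cells known to carry Ccr9 and Cxcr5 varied over the same whole marrow arrays. The sum of 9 B cell markers was 2916, 1166 and 4832 on whole marrow arrays 1, 2 and 3, 302 to 444 in the lineage-negative pools and 408 to 579 in the leukemias. All 9 were below whole marrow in both other groups, with medians of -2.19 in leukemia and -2.86 in lineage-negative marrow. The 7 genes listed as plasmacytoid dendritic cell markers summed to 1541, 737 and 1767 in whole marrow. Their sum was 548 to 801 in the lineage-negative pools and 463 to 605 in the leukemias. Of the 7, 5 (Ly6d, Dntt, Siglech, Cox6a2 and Bst2) were lower in leukemia than in whole marrow. The part of other cells, B lineage cells among them, in the signal of these 7 genes was not tested. The sum of 10 T and NK cell markers ran from 625 to 770 in whole marrow, 343 to 488 in the lineage-negative pools and 258 to 367 in the leukemias. The part of these cells in the values of Ccr9 and Cxcr5 was not tested.

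**Figure D3:**
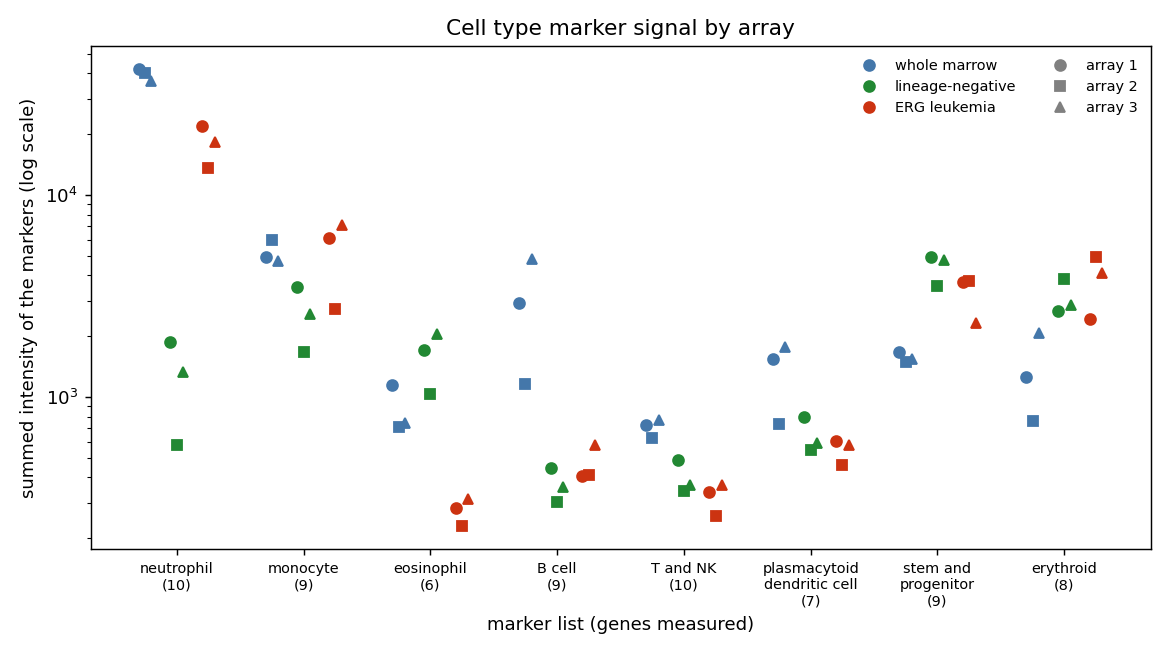
Summed intensity of the marker genes of 8 cell types on each of the 9 arrays (log axis). Neutrophil sums stand lowest in the lineage-negative pools and between the fractions in the leukemias, eosinophil sums stand lowest in the leukemias, and whole marrow array 2 has the lowest B cell and plasmacytoid dendritic cell sums of its group.

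Ccrl2 (probe set 10597279) is an atypical receptor that binds chemerin without signalling through G proteins. It read 6.76, 5.45 and 6.43 in whole marrow, 5.73, 5.58 and 5.66 in lineage-negative marrow, and 6.31, 5.92 and 6.23 in the leukemias. The leukemias lay within the range of whole marrow and above every lineage-negative pool. None of the 3 differences passed, at -0.06 ± 0.29 SE for leukemia against whole marrow (95% interval -0.72 to 0.59, limma adjusted p = 0.917), 0.49 ± 0.29 against lineage-negative marrow (limma adjusted p = 0.377) and -0.56 ± 0.29 between the wild type fractions (limma adjusted p = 0.181). Without whole marrow array 2, its lowest value, the last was -0.94 (adjusted p = 0.00266), and it passed with array weights (-0.74, adjusted p = 0.0184) and after centring on the 75th percentile (-0.71, adjusted p = 0.0408).

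The lineage-negative pools tended to be ordered alike over the receptors, and the arrays of the other groups less so. Such orders were not counted over all genes. Lineage-negative pool 1 had the highest value of its group for 8 of the 9 receptors, and pool 2 the lowest for 6. Leukemia array 2 was the lowest of the leukemias for 6 receptors and the highest for the other 3 (Ccr3, Cxcr5 and Cx3cr1). Whole marrow array 1 was the highest of its group for 5 receptors, while array 2 was the lowest for 5 and array 3 for 4. Leukemia array 2 also had the lowest neutrophil and monocyte marker sums of the leukemias and the highest erythroid sum, 4939 over 8 genes against 2438 and 4114. Pool 2 had the lowest neutrophil, monocyte and stem cell sums of the pools and the highest erythroid sum (3846 against 2669 and 2857).

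Promoter sequence is shown for the pair of receptors with the largest differences, Cxcr2 and Ccr1, for the widely expressed Cxcr4 and for Cx3cr1, which differed least. Each window is RefSeq sequence of mouse build GRCm38.p6, 5′ to 3′ on the strand of the gene, from 250 bases before to 50 after the annotated start. The windows are chr1:74153744-74154043 (plus strand) for Cxcr2, chr9:123968643-123968942 (minus strand) for Ccr1, chr1:128592250-128592549 (minus strand) for Cxcr4 and chr9:120068247-120068546 (minus strand) for Cx3cr1. Capitals mark exact matches, on either strand, to any of 5 short motifs whose letters are given after the sequences.
Cxcr2: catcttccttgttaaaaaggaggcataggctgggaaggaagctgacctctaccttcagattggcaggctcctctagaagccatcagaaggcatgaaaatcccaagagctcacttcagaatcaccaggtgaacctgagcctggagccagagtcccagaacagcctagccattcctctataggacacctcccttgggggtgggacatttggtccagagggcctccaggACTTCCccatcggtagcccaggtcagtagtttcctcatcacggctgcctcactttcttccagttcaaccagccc
Ccr1: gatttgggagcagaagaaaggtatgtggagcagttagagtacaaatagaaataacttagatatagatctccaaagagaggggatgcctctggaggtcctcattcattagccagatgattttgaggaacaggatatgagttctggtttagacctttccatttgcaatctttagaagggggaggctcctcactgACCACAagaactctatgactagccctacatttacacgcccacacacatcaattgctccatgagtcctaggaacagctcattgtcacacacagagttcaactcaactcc
Cxcr4: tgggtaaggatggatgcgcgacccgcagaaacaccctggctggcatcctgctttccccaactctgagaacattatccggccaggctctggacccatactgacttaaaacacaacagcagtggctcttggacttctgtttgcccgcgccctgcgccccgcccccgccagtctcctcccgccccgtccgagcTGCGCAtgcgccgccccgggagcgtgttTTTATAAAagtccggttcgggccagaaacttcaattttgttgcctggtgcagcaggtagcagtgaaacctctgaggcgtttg
Cx3cr1: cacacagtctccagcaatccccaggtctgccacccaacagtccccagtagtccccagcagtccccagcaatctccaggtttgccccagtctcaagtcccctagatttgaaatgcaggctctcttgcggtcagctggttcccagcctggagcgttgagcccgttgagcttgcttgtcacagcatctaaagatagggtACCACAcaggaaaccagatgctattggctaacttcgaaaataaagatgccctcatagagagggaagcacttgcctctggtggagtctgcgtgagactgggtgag

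The windows differ in CpG content. The Cxcr4 window holds 20 CpG dinucleotides and 59.3% G and C, and 73.5% of the 32851 mouse windows of the same length hold fewer CpG. The Cxcr2 window holds 2, the Ccr1 window 1 and the Cx3cr1 window 5, against a median of 7 over all windows. Ccr2 and Ccr3 also hold 1 each, Ccr9 holds 4, and the 3 windows of Ccrl2 hold 6, 8 and 8. No window was available for Cxcr5. The motif of the ETS family was searched as GGAAGT, and the Cxcr2 window has a match on the minus strand whose first printed base is 24 bases before the start. This motif is held by 23.8% of all windows. For RUNX factors the letters were TGTGGT, held by 16.8% of windows, and both Ccr1 and Cx3cr1 have a match on the minus strand, 58 and 54 bases before the start. For the factor NRF1 the letters were TGCGCA, held by 7.76% of windows, and Cxcr4 has a match 60 bases before the start. The TATA box was searched as TATAAA, held by 13.6% of windows, and Cxcr4 has matches on both strands that overlap each other, at 30 and 32 bases before the start. For GATA factors the letters were AGATAA, held by 11.2% of windows, with a match in Ccr2 at 97 and in Ccr3 at 30 bases before the start. Of the 3 RefSeq windows of Ccrl2, which overlap, the second and the third hold the same GATA match, 77 bases before the start of the second. Ccr3 also has an ETS match at 127 bases before it. The Ccr9 window has none of the 5 motifs. These matches are letters in a window, and binding was not measured.

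Ccr9, Ccr1, Ccr3 and Ccr2 lie in 1 cluster of receptor genes on chromosome 9, in the RefSeq order Ccr9, Fyco1, Cxcr6, Xcr1, Ccr1, Ccr1l1, Ccr3 and Ccr2. Neighbours in the cluster differed from each other. In leukemia against lineage-negative marrow the log2 differences were -0.28 for Ccr9, -0.85 for Cxcr6 (limma adjusted p = 0.0203), 0.10 for Xcr1, 1.86 for Ccr1, 0.15 for Ccr1l1, 0.68 for Ccr3 and 1.54 for Ccr2. In lineage-negative against whole marrow Ccr1 was at -3.61, Ccr2 at -1.73 and Ccr3 at -1.25, with Xcr1 at -0.28, Cxcr6 at 0.19 and Fyco1 at 0.15, none of the last 3 past the threshold. Ccr1l1, between Ccr1 and Ccr3, did not pass in any comparison (-0.07, 0.15 and -0.22). Cxcr2 lies beside the closely related Cxcr1 on chromosome 1. Cxcr1 read 5.53, 6.31 and 5.19 in whole marrow, 4.63, 4.68 and 4.99 in lineage-negative marrow and 5.27, 7.12 and 5.61 in the leukemias, and did not pass in any comparison. It was highest on leukemia array 2, where Cxcr2 was lowest of the leukemias. Ccrl2 lies beside Ltf, which passed in all 3 comparisons while Ccrl2 passed in none.

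Of 14 other chemokine receptors, 1 was higher and 3 lower in leukemia than in whole marrow (median -0.14), against 14.6% and 9.93% of all genes. Ccr7, which guides dendritic and T cells to lymph nodes, was lower by 1.60 ± 0.43 SE (limma adjusted p = 0.0266), with Cxcr3 and Cxcr6 the other receptors that were lower. Ackr1, the atypical receptor of erythroid cells and endothelium that binds chemokines without signalling, was higher. It read 5.48, 5.48 and 6.09 in whole marrow, 6.09, 6.51 and 6.20 in lineage-negative marrow and 6.31, 7.54 and 7.31 in the leukemias (1.37 ± 0.31 for leukemia against whole marrow, limma adjusted p = 0.0131). The sum of 8 erythroid markers was 759 to 2082 in whole marrow and 2438 to 4939 in the leukemias, where 5 of the 8 were higher (Gata1, Epb42, Epor, Ank1 and Klf1), and its part in Ackr1 was not tested. Against lineage-negative marrow Cxcr6 alone of the 14 passed, lower in leukemia, where it was dim (-0.85 ± 0.17, at least 1.32-fold, limma adjusted p = 0.0203). In that comparison 5.74% of all genes passed as lower and 2.95% as higher. In lineage-negative marrow 5 of the 14 were below whole marrow, against 13% of all genes. Ccr7 was lower by the most (-1.79 ± 0.43, limma adjusted p = 0.0109), followed by Cxcr3 (-0.93 ± 0.17, at least 1.88-fold, limma adjusted p = 0.00324). The other 3, Ccr6, Ccr4 and Ackr4, were dim in both groups, so no fold is given.

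Among 21 ligands of the 9 receptors, 5 were lower in leukemia than in whole marrow (Ppbp, Ccl3, Ccl6, Cxcl2 and Cxcl12) and none was higher in the limma fit, or 8 and 2 at an unadjusted p under 0.05. Over all 19938 genes 9.93% passed as lower and 14.6% as higher, or 3107 and 3847 genes at the unadjusted p. Ppbp, a platelet and megakaryocyte product that yields a Cxcr2 ligand, read 11.26, 10.60 and 10.97 in whole marrow, 12.34, 11.67 and 12.10 in lineage-negative marrow and 5.58, 7.74 and 7.55 in the leukemias. The leukemias stood far below both wild type fractions, 15.8-fold below whole marrow (-3.99 ± 0.51 SE, limma adjusted p = 0.00138) and 33.8-fold below lineage-negative marrow (-5.08 ± 0.51, limma adjusted p = 0.00127). Ccl3, a ligand of Ccr1, was also lower than in both, by 1.48 ± 0.35 (limma adjusted p = 0.0155) and by 2.05 ± 0.35 (limma adjusted p = 0.0106). Ccl6, another Ccr1 ligand, followed the order of its receptor, at 10.70 ± 0.26 (SD) in whole marrow, 7.86 ± 0.53 in lineage-negative marrow and 9.46 ± 0.38 in the leukemias. It was the only ligand of the 21 to pass as higher in leukemia than in lineage-negative marrow (1.61 ± 0.28 SE, limma adjusted p = 0.0116), as 2.95% of all genes did. Between the wild type fractions 5 ligands were lower in lineage-negative marrow, against 13% of all genes. The largest differences were those of Ccl6 (-2.84 ± 0.28, limma adjusted p = 0.000155) and Cxcl2 (-1.73 ± 0.27, limma adjusted p = 0.00122). Cxcl2 was dim in lineage-negative marrow, so its fold is at least 2.06. The others were Cxcl12 and Ccl2, also dim there (at least 1.89-fold and 1.34-fold), and Cx3cl1, which was dim in both fractions. Ccl25, the ligand of Ccr9, was higher (0.52 ± 0.10, limma adjusted p = 0.00498), as 21.7% of all genes were.

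The 24 genes listed under chemokine receptor signalling were mostly on the side of the 9 receptors where they passed. The list also holds C5ar1 and Cmklr1, which are receptors for other attractants and not parts of signalling below the 9 receptors. In leukemia against whole marrow 10 were lower and 1 higher (median -0.48), in leukemia against lineage-negative marrow 6 were higher and none lower (median 0.22), and in lineage-negative against whole marrow 17 were lower and none higher (median -0.85). Over all genes, in the same order of comparisons, 9.93%, 5.74% and 13% passed as lower and 14.6%, 2.95% and 21.7% as higher. At an unadjusted limma p under 0.05 the direction without calls held 3 lower genes in the second of these comparisons and 2 higher genes in the third. Of all 19938 genes, 2851 and 4976 were in those directions. Plcb2, a phospholipase activated by G proteins (-1.80 ± 0.31 SE, limma adjusted p = 0.00411), and Elmo1, which works with Dock2 in activating Rac (-1.77 ± 0.34, limma adjusted p = 0.00673), had the largest differences from whole marrow. The gene that was higher was Arrb1, a beta-arrestin that uncouples receptors from G proteins, at 9.48, 10.01 and 9.48 in the leukemias against 8.85, 8.49 and 8.60 in whole marrow (1.01 ± 0.15, limma adjusted p = 0.00258). C5ar1, the chemotactic receptor for complement C5a, read 8.73, 8.76 and 8.09 in whole marrow, 5.02, 4.05 and 4.65 in lineage-negative marrow and 7.57, 6.83 and 7.48 in the leukemias. It was at least 4.70-fold higher in leukemia than in lineage-negative marrow (2.72 ± 0.30, limma adjusted p = 0.0017) and at least 11.1-fold lower in lineage-negative than in whole marrow (-3.96 ± 0.30, limma adjusted p = 6.65e-05). Next in size among the signalling genes past the threshold were Arrb2, the other beta-arrestin, in the first of these comparisons (1.29 ± 0.20, limma adjusted p = 0.00746) and Pik3r5, a regulatory subunit of the PI3 kinase that G proteins activate, in the second (-2.60 ± 0.45, limma adjusted p = 0.00212).

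**Figure D4:**
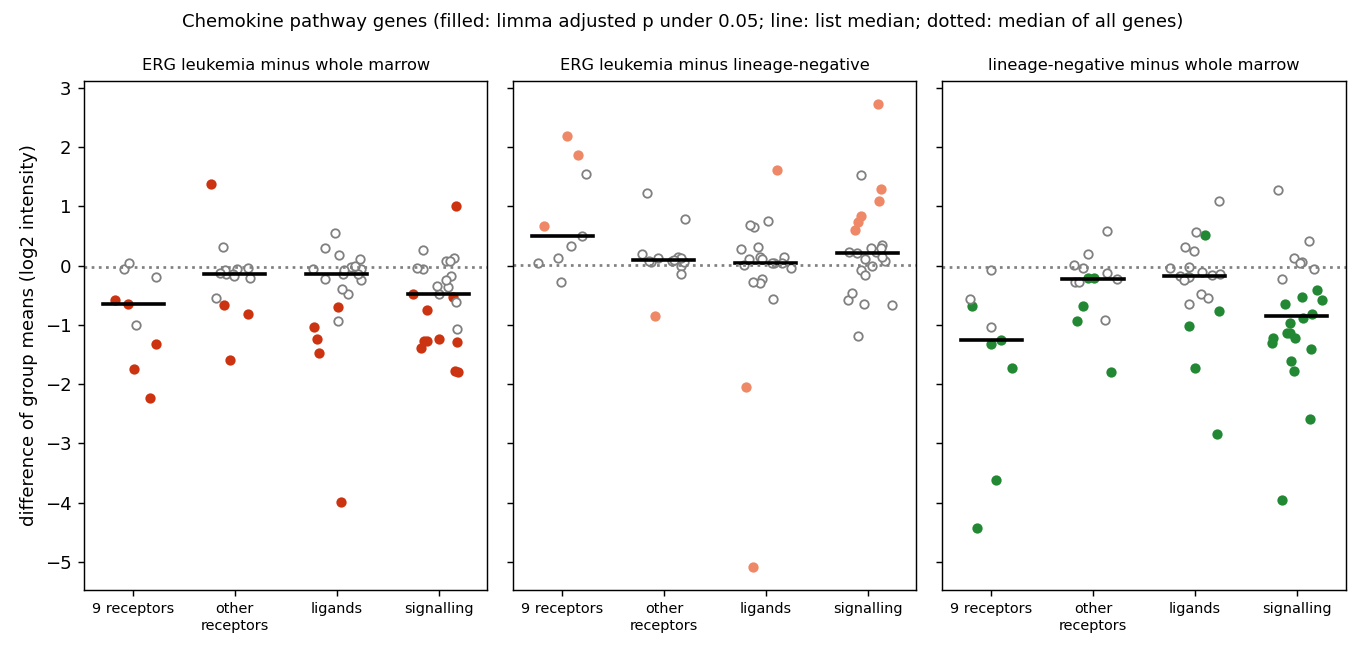
Log2 difference of every measured gene (points) of the 9 receptors, the 14 other chemokine receptors, the 21 ligands and the 24 signalling genes in the 3 comparisons, with each list's median (line) and the median of all genes (dotted); filled points passed at an adjusted p under 0.05. The signalling genes lie mostly below 0 for lineage-negative against whole marrow (median -0.85), and Ppbp is the lowest ligand in both comparisons of leukemia.

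The genes whose log2 values ran most like each receptor over the 9 arrays were found among 2873 to 2874 genes whose group means spanned at least 1 on that scale. The coefficients describe 9 arrays in 3 groups, so they include the differences between the groups. Cxcr2 was closest to Lyst (Pearson r = 0.997) and Pi16 (0.996), and Ccr1 to Clec5a (0.996) and Cd52 (0.995). Ccr2 was closest to Naaa (0.984) and Ctsc (0.98), and Ccr3 to Rasl11b (0.984) and Clec4b2 (0.97). Ccr9 was closest to Irf4 (0.981) and Mcoln2 (0.976), and Cxcr5 to the B cell surface genes Fcer2a (0.982) and Cr2 (0.978). Fcer2a is one of the B cell markers above, and read 7.28, 5.10 and 7.04 in whole marrow, with the same low array 2 as Cxcr5. Cxcr4 was closest to Nfatc1 and Lbh (0.959 each) and Ccrl2 to Gm1966 (0.95) and Acvrl1 (0.936). For Cx3cr1 the highest were Cxcr1 (0.682) and Tmem40 (0.614). Genes with as little difference between groups as Cx3cr1 were outside this search. These lower coefficients therefore do not show that it lacks a close partner.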

How the data were processed

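Deposited values of 28853 probe sets on 9 Affymetrix arrays are linear intensities, which the authors obtained by RMA and with Partek (per the submitters' processing notes). For genome build and tool versions, nothing is given in the sources used here. Planned as log2, the values proved linear, so log2 was taken first. In the probe annotation 21789 probe sets name 1 gene, 1621 several and 5443 none; for a gene with several probe sets (999 of 19938) the one with the highest mean over the 9 arrays was used. The 3 groups were fitted together with limma 3.58.1 (R 4.3.3), using lmFit, contrasts.fit and eBayes (6 residual and 2.62 prior degrees of freedom), two-sided, with Benjamini-Hochberg adjustment over 19938 genes and a threshold of 0.05; the procedure was tested on simulated data. P-values measure the spread between separate mice or pools. The receptors and gene lists were chosen with earlier results of these data known. Of 141 listed symbols 127 were measured. Beside the receptors, named genes are the 2 largest changes past the threshold in each pathway list and comparison, Cxcl12, Ackr3 and the 2 genes most like each receptor. Others (Fyco1, Cxcr1, Ccr1l1, Xcr1, Ltf, Csf3r, Epx, Ccl25, Arrb1 and list members named to account for a count) were chosen after their values were seen. RefSeq promoter windows (GRCm38.p6) were matched by symbol. Alternatives were other scalings, other limma settings, the dim-gene filter, the mean of probe sets, the replicate block and leaving out each array. The titles of leukemias 1 and 2 differ by 1 final digit; they were taken as separate mice, as the series' design states 3.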

Additional observations from a re-analysis of the deposited data

How the results depend on the processing

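Of 441 receptor results under 17 alternatives, 370 kept their direction and side of the threshold, 46 lost a call, 12 gained one and 13 changed direction. The cause was not tested. Several alternatives could not change a direction, because they leave the difference of the group means as it is. These were the mean of probe sets (each receptor has 1), the fit of only the 2 groups and eBayes with trend and robust. The dim-gene filter, the replicate block and leaving out an array of the group not compared were others. The number of receptors lower in leukemia than in whole marrow was 3 with only the 2 groups fitted and 1 to 5 over the left-out arrays. The number higher than in lineage-negative marrow was 1 to 3 over the left-out arrays, and the number lower in lineage-negative than in whole marrow 3 to 7. Centring on the 75th percentile moved the median of all genes to -0.125 for leukemia against whole marrow and to -0.194 for the wild type fractions. Cyclic loess gave 2093 higher and 2505 lower genes for leukemia against whole marrow, 775 and 791 against lineage-negative marrow, and 3030 and 3323 for the wild type fractions.

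Directions changed where differences were small. For leukemia against whole marrow, Ccr2 was 0.343 with array weights and -0.510 to 0.327 over the left-out arrays, Ccrl2 ran from -0.444 to 0.213, and Cx3cr1 was -0.058 after centring on the 75th percentile, -0.137 after cyclic loess and -0.114 to 0.190 over the left-out arrays. Over the left-out arrays, against lineage-negative marrow Cxcr4 ran from -0.166 to 0.234 and Cx3cr1 from -0.008 to 0.243, and between the wild type fractions Cx3cr1 ran from -0.239 to 0.065. Cyclic loess took Cx3cr1 farther, to 0.275 and -0.412 in these comparisons.

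With the replicate block on the 6 wild type arrays, 6 receptors were lower in lineage-negative marrow, as without it, and over all genes 4346 were higher and 2547 lower. Deviations of same-numbered arrays correlated at 0.312, -0.009 and -0.009, and 1 of 3 whole marrow arrays correlated best with its own number, so the numbers were not taken as pairs. Cxcr5, Ackr3 and, in lineage-negative marrow, Ccr3 lie near or below the median intensity, where small differences are least certain.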
